A study of Mus musculus with 30 samples.

Results

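Pou5f1, Nanog and Sox2 encode the transcription factors at the core of the network that keeps mouse embryonic stem (ES) cells pluripotent. They were taken as the probe sets annotated with exactly 1 of these symbols, which gave 3 probe sets, 1 for each gene, out of 34945 probe sets with a single symbol and 18193 genes. The probe sets are 1417945_at for Pou5f1 on chromosome 17, 1429388_at for Nanog on chromosome 6 and 1416967_at for Sox2 on chromosome 3. Their levels were followed in KH2 mouse ES cells treated with retinoic acid (RA), a signal of the early embryo that drives ES cells out of pluripotency by way of nuclear receptors.

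RNA was hybridised to 30 Affymetrix mouse arrays, 1 per sample, in 10 groups of 3. The 8 times run from 8 h to 72 h with 1 group each, except 12 h and 24 h, which have 2 groups each, D-F and A-C after the letters in the sample titles. Every group is the KH2 line with no further allele named in the labels, grown on feeder cells, and the differentiation medium held 0.3 uM RA. The 8 h samples are labelled baseline and all later ones retinoic acid, and it is not said whether the 8 h cells had received RA. The treatment text names RA treatments shorter than any labelled time, so how the labelled hours relate to RA exposure is not settled. Before lysis the cells were replated on gelatin, which the labels describe in 2 ways, with RNA taken either from the cells that adhered or from those left in the medium. The labels give no measure of the feeder cells left in a sample. Nothing in the labels tells whether the 3 samples of a group are separate cultures, so a p-value here reflects the spread between samples, which may be technical.

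The protein of Pou5f1, OCT4, has a POU domain, SOX2 has an HMG box and NANOG has a homeodomain. In ES cells OCT4 and SOX2 bind together to a composite DNA element, NANOG binds many of the same enhancers, and the 3 proteins activate their own genes and each other's. OCT4 and NANOG are lost as ES cells differentiate, while SOX2 is also a factor of neural progenitors, where its gene is kept on. RA is known to silence Pou5f1 through nuclear receptors that compete for elements in its promoter.

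The promoters were searched for POU, SOX and nuclear receptor motifs, and not every window holds each kind. Each line gives the 250 bases before the RefSeq start of the gene, on the strand of the gene and read towards the start, from RefSeq on build GRCm38.p6. Capitals mark matches to the motifs searched, and the motifs were picked with these promoters known. The windows are chr17:35505782-35506031, chr6:122707239-122707488 and chr3:34649745-34649994, all on the plus strand.
Pou5f1: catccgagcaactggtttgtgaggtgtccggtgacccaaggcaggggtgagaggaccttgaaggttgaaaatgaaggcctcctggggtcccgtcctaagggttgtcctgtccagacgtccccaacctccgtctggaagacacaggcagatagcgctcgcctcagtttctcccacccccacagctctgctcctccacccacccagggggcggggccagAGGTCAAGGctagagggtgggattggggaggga
Nanog: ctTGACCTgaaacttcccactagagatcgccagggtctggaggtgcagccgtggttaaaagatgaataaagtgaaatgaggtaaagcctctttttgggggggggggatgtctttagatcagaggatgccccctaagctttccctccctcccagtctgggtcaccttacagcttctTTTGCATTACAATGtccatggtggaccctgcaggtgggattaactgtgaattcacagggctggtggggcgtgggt
Sox2: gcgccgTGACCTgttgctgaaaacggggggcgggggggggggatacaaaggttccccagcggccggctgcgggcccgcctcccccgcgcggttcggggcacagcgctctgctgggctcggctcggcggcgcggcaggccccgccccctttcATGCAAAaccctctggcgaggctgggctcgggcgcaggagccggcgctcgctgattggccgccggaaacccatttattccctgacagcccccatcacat

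The search covered both strands of 32851 such windows. The composite of an octamer part TTTGCAT, any 1 base and a SOX site ACAATG was matched in the Nanog window 75 to 62 bases before the start, and its only matches were 2 windows (0.00609%), both of Nanog, for which RefSeq lists 2 starts. The octamer part TTTGCAT alone was in 4.12% of windows and was matched in the Sox2 window on the minus strand, 99 to 93 bases before the start. The SOX site ACAATG alone was in 10.7% of windows. The Pou5f1 window had no match to the octamer part, the SOX site or the composite. The Sox2 window had none to the SOX site or the composite. The nuclear receptor element AGGTCA was in 14% of windows and in all 3 shown, at 33 to 28 bases before the start in Pou5f1 and on the minus strand at 248 to 243 in Nanog and 244 to 239 in Sox2. Its extended form AGGTCAAGG, which contains AGGTCA, was in 87 windows (0.265%) and was matched in the Pou5f1 window 33 to 25 bases before the start. A match describes the letters and is not a binding site.

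The deposited values are log2 intensities whose quartiles are nearly equal across arrays, with medians of 6.34 to 6.39 and lower quartiles of 4.73 to 4.85. With 3 arrays a group, precision is limited by their number. The arrays fell into 2 sets in their spike-in controls. The difference between the spike-in probe sets BioDn and BioC was 1.34 to 1.63 on 18 arrays (12 h D-F, 24 h D-F and 36 h to 72 h) and 0.99 to 1.07 on 12 arrays (8 h, 12 h A-C, 16 h and 24 h A-C). The labels name no batch, so the comparisons below stay within a set, with 8 h as the start of the 12-array set and 12 h D-F as the start of the 18-array set. A gene was called at an adjusted p under 0.05 by limma, over all 18193 genes. RefSeq lists pseudogene copies of Pou5f1 and Nanog, and whether these probe sets read any of them was not tested.

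All 3 genes were near the top of the intensity range before 24 h, and the 3 left it at different times and to different depths. Pou5f1 was called lower from 24 h on and had the largest changes, and Sox2 was called lower from 36 h on (against 12 h D-F). Nanog was called lower at 16 h (against 8 h) and at 36 h and 60 h (against 12 h D-F). It was not called lower at 24 h, 48 h or 72 h. Against 12 h D-F, 1 of the 3 genes was called lower at 24 h D-F, where 14.8% of all genes were called lower and 30.8% in either direction, and all 3 were at 36 h, where the shares were 21.4% and 44.5%. At 48 h 2 of the 3 were called lower, beside 27.2% of all genes lower and 49.7% in either direction. At 60 h all 3 were, beside 33.6% and 57.2%, and at 72 h 2 of the 3, beside 34.5% and 60.6%. With shares of this size called, a call alone says little about these genes, and the sizes of the changes are given below.

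**Figure D1:**
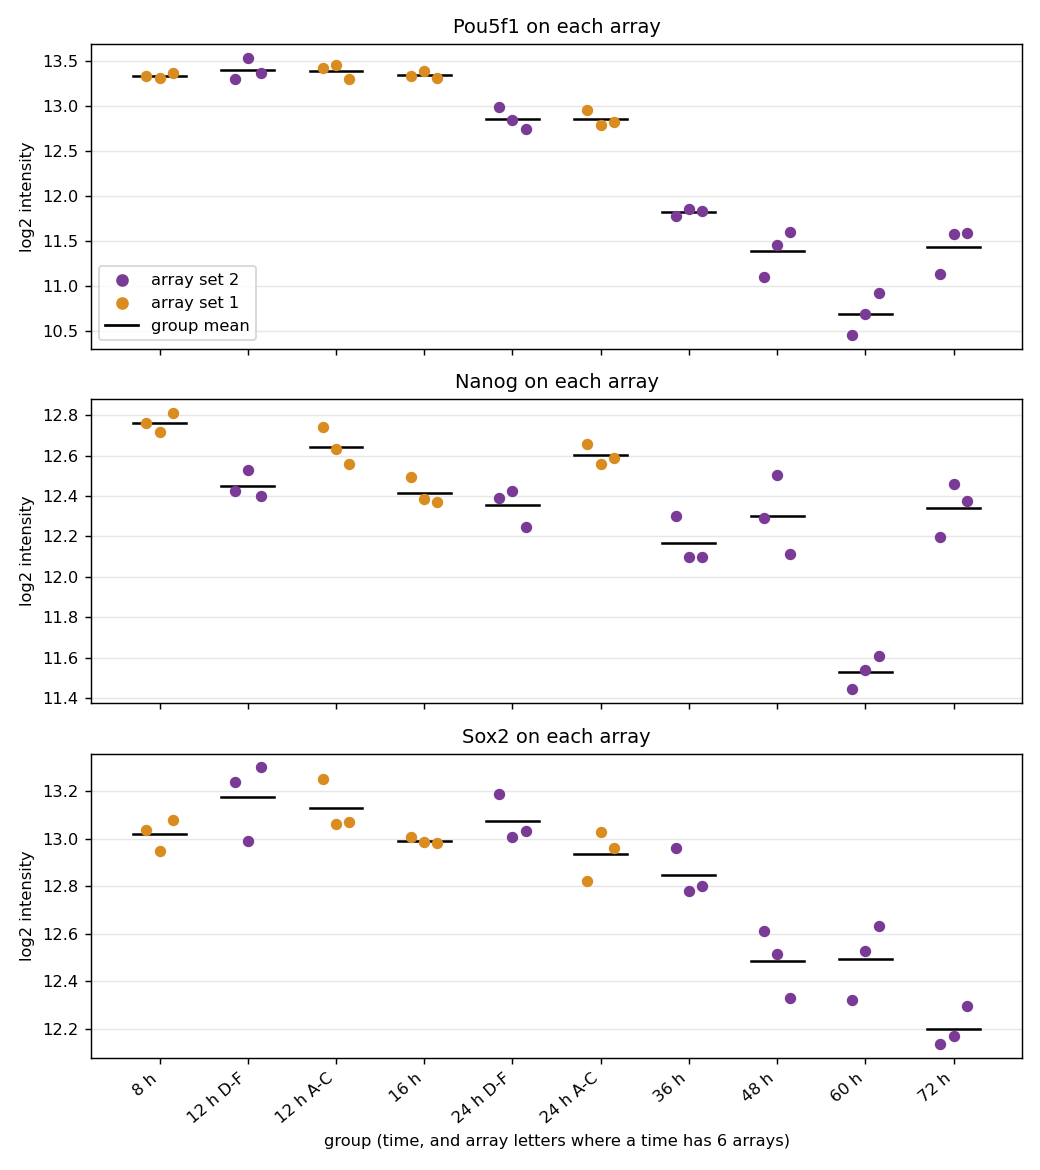
Log2 intensity of Pou5f1, Nanog and Sox2 on each of the 30 arrays, by group, with black lines at the group means and colours for the 2 array sets. Pou5f1 lies between 13.30 and 13.53 on every array up to 16 h and between 10.46 and 10.92 at 60 h, Nanog has its lowest arrays at 60 h, and Sox2 has its lowest arrays at 72 h.

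Pou5f1 held its level through 16 h. Its 3 arrays read 13.33, 13.31 and 13.37 log2 at 8 h, and 13.34, 13.38 and 13.31 at 16 h. At 12 h they read 13.30, 13.53 and 13.37 in D-F and 13.42, 13.45 and 13.30 in A-C. These 4 groups overlapped throughout, and the change at 16 h against 8 h was 0.01 ± 0.12 (SE), where 43.5% of all genes were called. At 12 h A-C against 8 h the changes of 0.06 for Pou5f1, -0.12 for Nanog and 0.11 for Sox2 were not called (limma, adjusted p = 0.81, 0.38 and 0.47), while 19.5% of all genes were. At 24 h the arrays read 12.98, 12.84 and 12.75 in D-F, and 12.95, 12.78 and 12.82 in A-C. Every 24 h array was thus below every earlier one. The change was -0.48 ± 0.12 at 24 h A-C against 8 h (limma, adjusted p = 0.0022), or 71.6% of the 8 h signal with a 95% interval of 60.4% to 84.9%, and 39.3% of all genes were called there. The other set gave -0.54 at 24 h D-F against 12 h D-F (limma, adjusted p = 0.0010). The step from 12 h to 24 h differed between the letters by -0.004 ± 0.17, an interaction that was not called (limma, adjusted p = 0.99), while 19.1% of all genes were.

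The steep part of the fall of Pou5f1 came between 24 h and 36 h. Its arrays read 11.78, 11.85 and 11.83 at 36 h, all below every 24 h array. That step was -1.04 (limma, adjusted p = 2.1e-06), in a comparison where 13.6% of all genes were called, a fall that 8 of all 18193 genes matched or exceeded, Pou5f1 included. At 48 h the arrays read 11.10, 11.46 and 11.60, and at 60 h they read 10.46, 10.69 and 10.92. The 60 h arrays were the lowest of the course, with no overlap with any other group. At 72 h the values were 11.13, 11.58 and 11.59, which overlap those of 48 h and lie above all of 60 h. Against 12 h D-F, Pou5f1 stood at 33.5% of the signal at 36 h (interval 28.3% to 39.7%), 24.8% at 48 h (20.9% to 29.4%), 15.3% at 60 h (12.9% to 18.1%) and 25.6% at 72 h (21.6% to 30.4%). The log2 changes were -1.58, -2.01, -2.71 and -1.96, each called (limma, adjusted p = 1.1e-10, 7.8e-13, 1.5e-15 and 5.6e-13). Few genes fell as far, since 28 genes at 60 h and 53 at 72 h, Pou5f1 included, had a fall of at least its size. In RNA of a bulk sample, fewer cells that express a gene and less of its RNA per cell cannot be told apart.

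Nanog changed little until after 48 h. Its arrays read 12.76, 12.72 and 12.81 at 8 h, 12.50, 12.38 and 12.37 at 16 h, and 12.66, 12.56 and 12.59 at 24 h A-C. The dip at 16 h was small and was called, at -0.35 ± 0.08 against 8 h (limma, adjusted p = 0.0016), with no overlap between the groups. At 24 h A-C the change against 8 h was -0.16 and was not called (limma, adjusted p = 0.14), although all 24 h A-C arrays lay below all 8 h arrays. The fits that used only these 2 groups or ignored the array sets did call it. Nanog also differed between the letters. The D-F arrays read 12.43, 12.53 and 12.40 at 12 h, below the A-C arrays at 12.74, 12.63 and 12.56. At 24 h the D-F arrays, at 12.39, 12.43 and 12.25, differed from A-C by -0.25, which was called (limma, adjusted p = 0.025), as were 33.8% of all genes. The difference at 12 h was -0.19 and was not called (limma, adjusted p = 0.074), where 39% of all genes were.

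From 36 h on, Nanog dropped at 1 time and was higher again at the next. Its arrays read 12.30, 12.10 and 12.10 at 36 h, 12.29, 12.51 and 12.11 at 48 h, and 11.44, 11.54 and 11.61 at 60 h. All 60 h arrays lay below every other array of the course. At 72 h the arrays read 12.20, 12.46 and 12.37, 1 of them within the range of 12 h D-F and the other 2 below it. Against 12 h D-F the changes were -0.28 at 36 h, which was called (limma, adjusted p = 0.0079), -0.15 at 48 h, which was not (adjusted p = 0.16), -0.92 at 60 h, which was (adjusted p = 1.0e-09), and -0.11 at 72 h, which was not (adjusted p = 0.28). Nanog signal at 60 h was 52.8% of that at 12 h D-F (interval 46.8% to 59.6%), and at 72 h it was 92.8% (82.2% to 104.7%). The interval at 72 h therefore spans both a loss and a gain, and the lowest Nanog array of the course, at 11.44, was still well above the array medians.

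Sox2 kept its level through 24 h and was lower than at 12 h D-F from 36 h on. Its arrays read 13.04, 12.95 and 13.08 at 8 h, and 13.00, 12.99 and 12.98 at 16 h. At 12 h they read 13.24, 12.99 and 13.30 in D-F, and 13.25, 13.06 and 13.07 in A-C. At 24 h they read 13.19, 13.01 and 13.03 in D-F, and 12.82, 13.03 and 12.96 in A-C. These groups overlap their neighbours in level, and the change at 24 h A-C against 8 h was -0.09 ± 0.09 (limma, adjusted p = 0.47). At 36 h the arrays read 12.96, 12.78 and 12.80, just under the lowest 12 h D-F array. At 48 h they read 12.61, 12.51 and 12.33, at 60 h 12.32, 12.53 and 12.63, and at 72 h 12.14, 12.17 and 12.30. The 48 h and 60 h arrays overlap, and those of 72 h lie below all others of the course.

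Against 12 h D-F the log2 changes of Sox2 were -0.33 at 36 h, -0.69 at 48 h, -0.68 at 60 h and -0.97 at 72 h, each ± 0.09 and each called (limma, adjusted p = 0.0041, 4.9e-07, 4.1e-07 and 1.0e-09). At 72 h Sox2 signal was 50.9% of that at 12 h D-F (interval 44.8% to 57.9%). A fall of at least this size was seen in 525 genes at 72 h, Sox2 included, so Sox2 stands less far out than Pou5f1. The step of Sox2 at 36 h against 24 h D-F was -0.23, without overlap between the groups. It was not called (limma, adjusted p = 0.098), where 13.6% of all genes were. The step at 48 h against 36 h was called at -0.36 (limma, adjusted p = 0.0046), where 22.1% of all genes were called. The step at 60 h against 48 h was 0.01 ± 0.09 (limma, adjusted p = 0.96), where 23.2% were.

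**Figure D2:**
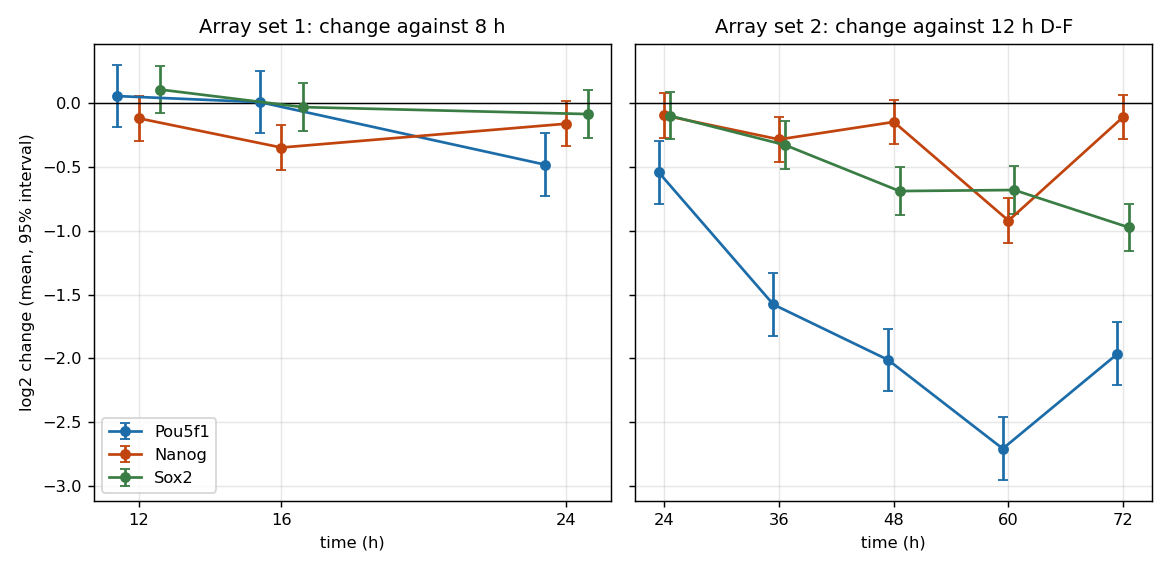
Log2 change of Pou5f1, Nanog and Sox2 with 95% intervals of the limma fit, against 8 h in the 12-array set and against 12 h D-F in the 18-array set, by time in hours. Pou5f1 reaches -2.71 at 60 h and -1.96 at 72 h, Nanog -0.92 and -0.11, and Sox2 -0.68 and -0.97.

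Timing was described by the time at which a gene had gone through 50% of its log2 change between 12 h D-F and its lowest group mean, read by straight lines between means. For Pou5f1 this was 33.4 h (32.7 h to 34.1 h over leaving out each array), with the lowest mean at 60 h. For Sox2 it was 41.3 h (39.8 h to 42.7 h), with the lowest mean at 72 h. For Nanog it was 52.9 h (51.8 h to 53.6 h), with the lowest mean at 60 h. The ranges of the 3 genes did not overlap, but they come from leaving out single arrays and are not confidence intervals. They therefore do not test whether the times differ. The lowest Sox2 mean is that of the last group, so a later, lower level would move its time. The Nanog time rests on the 60 h group, and Nanog was higher again at 72 h. On the linear scale Pou5f1 had lost 50% of its signal at 30.4 h, and neither Nanog nor Sox2 reached a loss of 50% at any group mean.

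The differences in depth were also taken within arrays, as 1 gene minus another, which cancels any shift shared by a whole array. With 3 arrays against 3 the exact two-sided permutation test cannot go below p = 0.1. At 72 h against 12 h D-F, Pou5f1 minus Nanog changed by -1.86, Pou5f1 minus Sox2 by -0.99 and Nanog minus Sox2 by 0.87, each with no overlap between groups and the smallest exact p of 0.1. By these values Pou5f1 had lost most at 72 h, Sox2 less and Nanog least. At 60 h against 12 h D-F, Pou5f1 minus Nanog changed by -1.79 and Pou5f1 minus Sox2 by -2.03, again without overlap (exact p = 0.1 for each). Nanog minus Sox2 changed by -0.24 at 60 h and the groups overlapped (exact permutation p = 0.2), so the loss of Nanog and that of Sox2 were not told apart at that time.

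The 60 h group was the lowest for Pou5f1 and Nanog, which made 72 h against 60 h a comparison of interest, chosen after the values were seen. Pou5f1 was higher at 72 h than at 60 h by 0.74 ± 0.12 log2 (limma, adjusted p = 2.1e-04), or 167% of the 60 h signal (interval 141% to 198%). Nanog was higher by 0.81 ± 0.08 (limma, adjusted p = 1.4e-06), or 176% (156% to 198%). Sox2 changed the other way, by -0.29 (limma, adjusted p = 0.035). Of all genes, 11.2% were called in this comparison, 8.54% higher and 2.67% lower. In a fit of only these 2 groups the calls of Pou5f1 (adjusted p = 0.11) and Sox2 (adjusted p = 0.22) were lost, that of Nanog was kept, and 131 genes were called in place of 2039. The Sox2 call was also lost without 60 h replicate 2 (-0.28), 60 h replicate 3 (-0.22), 72 h replicate 1 (-0.26) or 72 h replicate 2 (-0.28), while leaving out any array kept the calls of Pou5f1 and Nanog. Within arrays, Pou5f1 minus Nanog changed by -0.07 at 72 h against 60 h with overlapping groups (exact permutation p = 0.6), while Pou5f1 minus Sox2 changed by 1.04 and Nanog minus Sox2 by 1.11, with no overlap (exact p = 0.1 for each). At 60 h against 48 h, Pou5f1 changed by -0.70 (limma, adjusted p = 1.5e-04) and Nanog by -0.77 (limma, adjusted p = 5.6e-07).

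Over the whole course, 72 h was set against 8 h by adding the change from 8 h to 24 h in A-C and that from 24 h to 72 h in D-F and later arrays. Pou5f1 changed by -1.90 ± 0.17 (limma, adjusted p = 1.1e-09) and Sox2 by -0.96 ± 0.13 (limma, adjusted p = 7.1e-07), while Nanog changed by -0.17 ± 0.12 and was not called (limma, adjusted p = 0.24). Of all genes 50.9% were called. The direct difference, which crosses the array sets, was -1.90 for Pou5f1, -0.82 for Sox2 and -0.42 for Nanog, which was then called (limma, adjusted p = 1.2e-04) along with 66.5% of all genes. The choice of path thus decides whether a net fall of Nanog is called, and does not change the call of Pou5f1 or Sox2.

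Genes described as direct targets of the 3 factors were mostly lower at 72 h, as Pou5f1 was. Of 15 measured core targets, 14 were called lower at 72 h against 12 h D-F and 1 higher, against 34.5% of all genes lower and 26.2% higher. Their median change was -1.42, beside -0.09 for all genes. Tdgf1, the Nodal co-receptor Cripto, averaged 10.13 log2 at 72 h and 13.25 at 12 h D-F, a change of -3.12 (limma, adjusted p = 2.3e-16). Utf1, a chromatin factor of undifferentiated ES cells, changed by -2.96, and Eras, a constitutively active RAS protein of ES cells, by -2.91. Gdf3, a TGF-beta family ligand, changed by -2.19. The exception was Fbxo15, an ES cell F-box gene named here after its values were seen, which was higher at 72 h by 0.57 (limma, adjusted p = 8.8e-05). Chained from 8 h through 24 h (the 72 h minus 24 h D-F change plus the 24 h A-C minus 8 h change), Fbxo15 changed by -0.11 and was not called (limma, adjusted p = 0.59), so its direction turns with the baseline. On that path 13 of the 15 targets were called lower, beside 50.9% of all genes called in either direction. Their median was -1.39, beside -0.08 for all genes.

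Several core targets had moved by 24 h, some by more than Pou5f1. At 24 h A-C against 8 h, 12 of the 15 were called lower and 2 higher, beside 15.8% of all genes lower and 23.5% higher, with a median of -0.59 (all genes -0.02). Tcl1, a co-activator of AKT, changed by -1.69, Dppa3, a maternal factor that protects DNA methylation marks, by -1.21, Fgf4, the growth factor whose enhancer holds an OCT4 and SOX2 element, by -1.20, and Utf1 by -1.13, each called. Pou5f1 itself changed by -0.48 in that comparison. The 2 higher genes, Lefty1 (0.58) and Lefty2 (0.76), encode Nodal antagonists and were named after their values were seen. Both changed the other way at 72 h against 12 h D-F, by -1.42 and -0.60. Lefty2 was not called when chained from 8 h through 24 h (-0.72, limma, adjusted p = 0.051). Some core targets were lower by value at 16 h already, where Pou5f1 had changed by 0.01 against 8 h. The 8 h and 16 h means were 9.92 and 8.42 for Tcl1, 11.04 and 10.19 for Dppa3 and 12.80 and 11.98 for Utf1. Fgf4 differed less (10.32 and 10.19), and Dppa5a was nearly equal (14.46 at both). Phc1 (12.52 and 12.55) and Lefty1 (13.59 and 13.95) were higher by value.

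**Figure D3:**
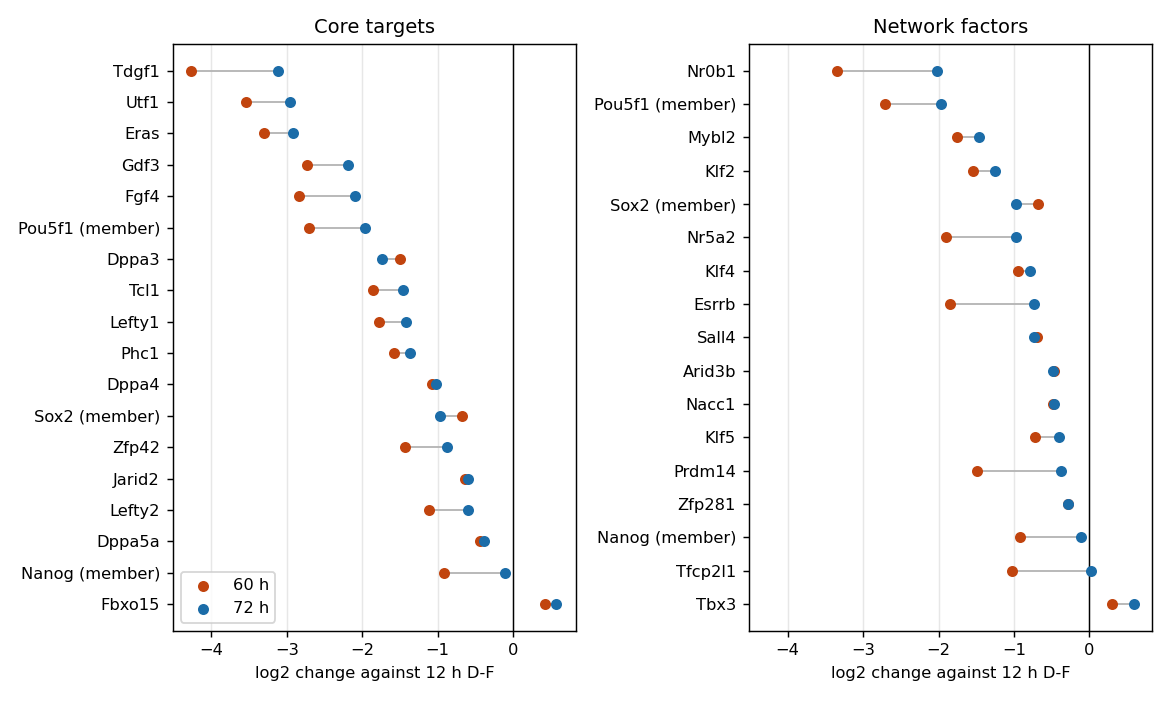
Log2 change at 60 h (orange) and 72 h (blue) against 12 h D-F for the measured core targets on the left and network factors on the right, with Pou5f1, Nanog and Sox2 drawn among them, sorted by the 72 h change. The 2 comparisons share their 12 h D-F arrays. Pou5f1 lies at -2.71 and -1.96, and Nr0b1, Esrrb and Tfcp2l1 lie further to the left at 60 h than at 72 h.

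Transcription factors that partner with the core factors were also mostly lower. Of 14 measured network factors, 12 were called lower at 72 h against 12 h D-F and 1 higher (all genes 34.5% and 26.2%), with a median of -0.61. Nr0b1, an orphan nuclear receptor that binds OCT4, averaged 8.34 at 72 h and 10.35 at 12 h D-F, a change of -2.02 (limma, adjusted p = 4.8e-09). Mybl2, a cell cycle transcription factor, changed by -1.46, Klf2, a Krüppel-like factor of naive ES cells, by -1.25, and Nr5a2, a nuclear receptor that activates Pou5f1, by -0.97. The factor called higher was Tbx3 (0.59), a T-box factor named after its values were seen, and chained through 24 h it changed by 0.09 and was not called (limma, adjusted p = 0.60). At 24 h A-C against 8 h, 11 were called lower and 1 higher (all genes 15.8% and 23.5%), with a median of -0.40. Esrrb, an orphan nuclear receptor that partners with NANOG, changed by -1.23 and Klf4 by -0.99 in that comparison, both called.

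Some of these genes shared the 60 h low of Pou5f1 and Nanog. At 72 h against 60 h, 6 core targets and 7 network factors were called higher by limma, beside 8.54% of all genes, with medians of 0.39 and 0.29 beside 0.02 for all genes. These calls come from the fit of all arrays, and a fit of only these 2 groups called 131 genes in place of 2039. Those called higher include Tdgf1 (1.15), Fgf4 (0.74), Utf1 (0.57) and Gdf3 (0.54) among the targets and Nr0b1 (1.33), Esrrb (1.12) and Nr5a2 (0.94) among the factors. Esrrb averaged 9.53 ± 0.26 at 72 h and 8.42 ± 0.22 at 60 h (SD, n = 3 each). At 60 h against 48 h, 11 core targets and 8 network factors were called lower, with medians of -0.64 and -0.34, beside 13.8% of all genes lower.

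The leukaemia inhibitory factor (LIF) pathway sustains mouse ES cells through STAT3. Of its 7 genes, 5 were called higher and 2 lower at 72 h against 12 h D-F (all genes 26.2% and 34.5%), with a median of 0.64. The receptor genes Lifr and Il6st were higher by 1.13 and 0.81, the kinase gene Jak1 by 0.94, Lif itself by 0.64 and Stat3 by 0.57. The falls were in Gbx2, a homeobox target of the pathway, at -2.32 (limma, adjusted p = 2.9e-15), and in Socs3, its feedback inhibitor, at -0.68 (limma, adjusted p = 8.3e-05). Chained from 8 h through 24 h, Gbx2 changed by -1.72 and was called, while Socs3 changed by 0.07 and was not (limma, adjusted p = 0.79), so the call of Socs3 depends on the baseline. At 24 h A-C against 8 h the pattern differed in value, with Gbx2 at 0.70 and Lifr at -0.59, both called, and Socs3 at 0.13, which was not.

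Genes for RA receptors and for repressors of the core factors moved in both directions. At 72 h against 12 h D-F, 6 of 14 were called higher and 7 lower (all genes 26.2% and 34.5%), with a median of -0.22. Nr2f1 and Nr2f2, which encode the COUP-TF orphan receptors known to repress Pou5f1 through its promoter, averaged 11.10 and 11.68 at 72 h, against 5.90 and 6.64 at 12 h D-F. Their changes were 5.20 and 5.04 (limma, adjusted p = 5.6e-18 and 9.5e-20). At 24 h A-C against 8 h they had changed by 1.45 and 0.63, both called, as were 39.3% of all genes. The 8 h mean of Nr2f1 was 4.93, close to the lower quartile of the arrays. Pou5f1 was first called lower in that comparison, and a link between these changes was not tested. Rarb, an RA receptor gene that RA induces, was higher by 2.87 at 72 h and by 0.93 at 24 h A-C. Rarg changed by -1.38 and Rara by -0.55 at 72 h, and Rxra, the shared partner receptor, was higher by 0.83. Nr6a1, the germ cell nuclear factor known to silence Pou5f1 in differentiating cells, fell at 72 h, with a change of -1.14.

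The remaining repressors and silencing enzymes also moved in both directions. The orphan receptor gene Nr2f6 was higher by 0.55 at 72 h, and Tcf7l1, a repressor of Nanog in the WNT pathway, by 0.40. Cdx2, the trophectoderm factor that opposes OCT4, changed by -0.54. Both Tcf7l1 and Cdx2 depend on the baseline, since chained from 8 h through 24 h they changed by 0.02 and 0.01 and were not called (limma, adjusted p = 0.83 and 0.98). The DNA methyltransferase genes Dnmt3b and Dnmt3a changed by -1.57 and -1.03, and the histone methyltransferase gene Ehmt2 by -0.43, all called. Kdm1a, a histone demethylase gene, changed by -0.02 and was not called (limma, adjusted p = 0.79).

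Many relatives of Sox2 and Pou5f1 were higher. Of 16 measured SOX and POU genes, 11 were called higher and 2 lower at 72 h against 12 h D-F (all genes 26.2% and 34.5%), with a median of 0.51. Pou3f3, a POU factor of neural cells, was higher by 3.22, Sox17, an endoderm factor, by 2.89, and Sox11, a neural progenitor factor, by 2.25. Pou3f1, a POU factor of epiblast and neural cells, changed by -2.93. Sox1 and Sox3, the closest relatives of Sox2 and markers of neural progenitors, differed by 0.35 and 0.01 at 72 h, neither called (limma, adjusted p = 0.10 and 0.95). For Sox1 this depends on the baseline, since its mean was 8.39 at 12 h D-F and 5.95 at 12 h A-C, and chained from 8 h through 24 h it was called higher by 1.78. Both Sox1 and Sox3 had been higher at 24 h A-C against 8 h, by 2.65 and 0.86, when Sox2 changed by -0.09. Sox4 was higher by 1.50 and Sox15, a SOX gene of ES cells, changed by -1.27 in that comparison. At 72 h against 60 h, Sox1 and Sox3 changed by -0.99 and -0.82, both called, beside -0.29 for Sox2.

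**Figure D4:**
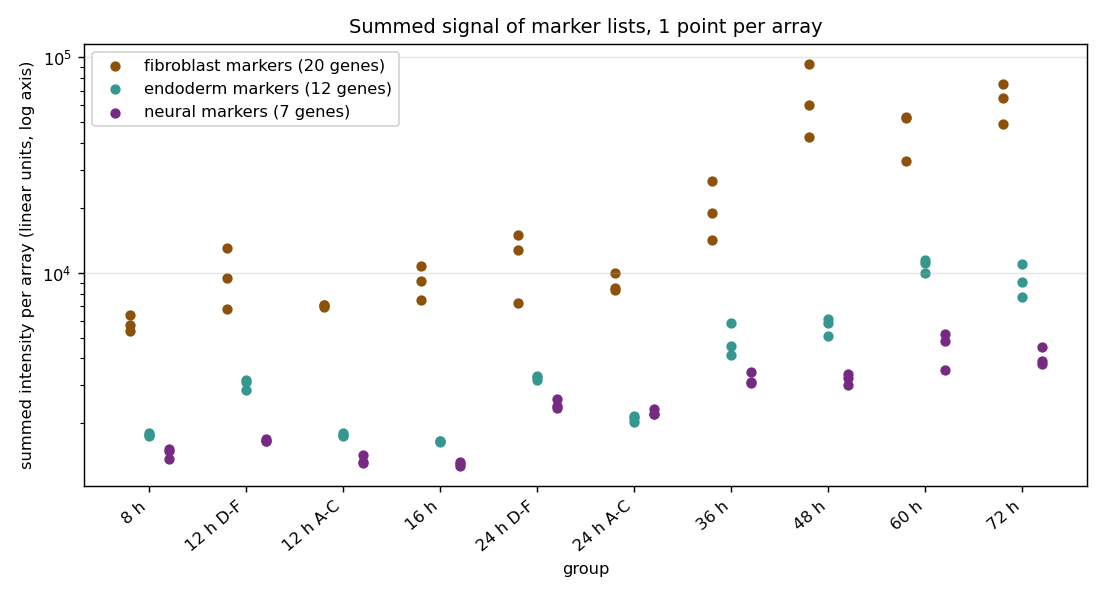
Summed linear intensity of the fibroblast, endoderm and neural marker lists on each of the 30 arrays by group, on a log axis, 1 point per array and list. All 3 sums are higher at 72 h than at 12 h D-F, and the fibroblast sum runs from 32999 to 52599 at 60 h, a range that overlaps those of 48 h and 72 h.

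Markers of other cell types moved with the loss of the core factors, and their part in the result was not tested. The summed signal of 20 fibroblast markers was 49033 to 75264 at 72 h and 6786 to 13080 at 12 h D-F, in linear units. Of the 20, 17 were called higher by limma, beside 26.2% of all genes, with Col3a1 (4.04), Col1a1 (3.59), Acta2 (3.16) and Col1a2 (2.86) at the top. Collagen and smooth muscle actin genes are made by feeder fibroblasts and also by mesodermal cells that arise from ES cells. All 7 defining fibroblast markers lay above 4.73, the lowest array's lower quartile, on every array, and the weakest, Lum, ranged from 4.79 to 7.06. The lower quartiles of the arrays ran up to 4.85, so this bar does not show that Lum was above background on each array. The endoderm sum (12 genes) was 7688 to 11020 at 72 h and 2861 to 3175 at 12 h D-F, with 8 genes called higher, led by Lama1 (3.02), and 1 lower, the secreted carrier gene Ttr (-0.43), named after its values were seen. The neural sum (7 genes) was 3782 to 4547 at 72 h and 1652 to 1685 at 12 h D-F, with 6 called higher, among them Map2 (2.56). Zic1, a zinc finger factor of neural cells, averaged 9.89 at 72 h, against 4.81 at 12 h D-F, which is close to the lower quartile of the arrays, so its difference is a lower bound. The sum of 8 reference genes was 84226 to 87175 at 72 h and 81489 to 83312 at 12 h D-F, with a median change of -0.06.

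At 60 h, when Pou5f1 and Nanog were lowest, the fibroblast sum was 32999 to 52599, against 42627 to 93016 at 48 h, and at 72 h it was 49033 to 75264. The 60 h range of this sum overlaps those of 48 h and 72 h. The endoderm sum was 9940 to 11412 at 60 h and 5064 to 6110 at 48 h, so that it differed in the same step in which Pou5f1 and Nanog fell. Its 72 h range of 7688 to 11020 overlaps that of 60 h. As a linear sum it is weighted to its brightest genes, which include Lama1 (10.49 at 48 h and 11.73 at 60 h) and Cubn (9.64 and 11.34). In the same step the means of Amn (7.93 and 7.56), Ttr (7.46 and 7.31) and Afp (5.45 and 5.39) were lower by value. At 24 h A-C the fibroblast sum was 8331 to 9932, against 5394 to 6397 at 8 h. In that comparison, where Pou5f1 was first called lower, 4 of the 20 markers were called higher, beside 23.5% of all genes.

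The course of each gene was set beside others by Pearson's r over the 18 arrays from 12 h D-F to 72 h, among genes whose group means spanned at least 1 log2. The means of Nanog (12.45 to 11.53) and Sox2 (13.17 to 12.20) spanned less than that. Genes with a span as small as theirs were therefore not compared, and the counts of like genes are not on equal terms with that of Pou5f1. These r values describe arrays that share the time course and its 60 h and 72 h groups, and r over the 12 arrays from 8 h to 24 h A-C is given beside them. Pou5f1 was followed closely by many genes, with 316 of 2408 at an r above 0.9. The 5 nearest were Fgf4 (0.99, and 0.96 over the 12 arrays), Cars, a cysteinyl-tRNA synthetase gene (0.99 and -0.46), Cth, an enzyme gene of cysteine synthesis (0.99 and -0.77), Tdgf1 (0.99 and 0.96) and Olig1, a basic helix-loop-helix factor (0.98 and 0.59). Fgf4 and Tdgf1 were thus like Pou5f1 over both sets of arrays, while Cars and Cth were not.

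Nanog was matched at an r above 0.9 by 7 of 2409 genes, a count that leaves out genes with a span as small as its own. The nearest were Grhl3, a grainyhead-like factor (0.94, and 0.74 over the 12 arrays), Tfcp2l1, a factor of naive ES cells (0.94 and -0.04), Cdx1, a caudal homeobox factor (0.94 and -0.91), Nkx1-2, an NK homeobox factor (0.93 and 0.07), and Prdm14, a factor of naive ES cells (0.93 and 0.54). All 5 were lower at 60 h than at 72 h by value. That follows from their choice by r with Nanog over these same arrays and is not a separate result. Tfcp2l1 changed by -1.02 at 60 h and 0.02 at 72 h against 12 h D-F, and Prdm14 by -1.49 and -0.38, beside -0.92 and -0.11 for Nanog. Nkx1-2 had the widest swing of the 5, at -2.61 and -0.78. The 60 h and 72 h values share their 12 h D-F arrays.

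Sox2 was matched at an r above 0.9 by 68 of 2409 genes, again with genes of a span as small as its own left out. The nearest were Gldc, the glycine decarboxylase gene (0.96, and 0.35 over the 12 arrays), Tafa4, a secreted protein gene (0.94 and 0.26), Aldh9a1, an aldehyde dehydrogenase gene (0.94 and 0.13), Ttc29 (0.94 and -0.07) and Chd5, a chromatin remodeller gene (0.94 and -0.54). Each of these was lower at 72 h than at 60 h by value, from -0.15 for Tafa4 to -0.34 for Ttc29, as Sox2 was. They were chosen by r with Sox2 over these same arrays, so this likeness is not a separate result. Among the 3 core genes themselves, r over the 18 arrays was 0.81 between Pou5f1 and Sox2, 0.69 between Pou5f1 and Nanog and 0.34 between Nanog and Sox2. Over the 12-array set these were 0.49, 0.08 and 0.29.

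Sox2 lies within Sox2ot, a long non-coding RNA gene, which the array reads by its own probe set. The Sox2ot probe set was near the lower quartile of the arrays throughout, with group means of 4.72 to 5.49. It averaged 5.09 at 72 h and 5.49 at 12 h D-F, a change of -0.40 (limma, adjusted p = 0.0054), but over the whole course chained through 24 h it changed by 0.06 (limma, adjusted p = 0.80). Its 12 h D-F mean was 0.75 above that of 12 h A-C, so its fall depends on which 12 h arrays it is set against.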

How the data were processed

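RNA of 30 samples of KH2 mouse ES cells was hybridised to Affymetrix mouse arrays, 1 array per sample. The deposited values are log2 intensities that were already normalised by the authors, as their nearly equal quartiles show. The methods of background correction, probe summary and normalization are not given in the sources used here, and limma 3.8.3 is named per the submitters' processing notes. Of 45101 probe sets, 64 controls, 9160 with no symbol and 932 with several symbols were left out. Where a gene had several of the remaining 34945, as 9010 genes did, the one with the highest mean was kept, which gave 18193 genes. No filter on dim genes and no further normalization was applied. Of 30 pairs of arrays from the same group, 0 were identical.

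The tests used limma 3.58.1 (R 4.3.3), in 1 fit of 10 groups with no block and empirical Bayes variance, two-sided, with Benjamini-Hochberg adjustment over all genes and calls under 0.05. Intervals are 95%. Differences between genes within arrays were tested with exact permutation tests. The 2 array sets were defined from spike-in values, not from labels. The files mark neither saturated nor undetected probe sets. Over 9 pairs of groups, the deviations of same-letter arrays correlated at -0.17 to 0.29. They were above 0.1 for every letter in 1 pair only, 48 h and 36 h, where a block by letter changed no call of the 3 genes.

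The 3 genes and the 9 lists (113 of 123 genes measured) were chosen with earlier results of these data known. Of each list, up to 4 genes with the largest change at 72 h against 12 h D-F and up to 4 at 24 h A-C against 8 h were named, and any gene of the LIF and RA lists. The 5 genes most like each core gene were named by Pearson's r. Alternatives covered normalization, dim genes, probe set choice and type, variance prior, array weights, the groups in the fit, the array set, the replicate letter as a block, and each array left out in turn. The comparisons with 60 h, the list counts without 72 h replicate 1 and the fits of 48 h against 36 h were added after the values were seen.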

Additional observations from a re-analysis of the deposited data

How the results depend on the processing

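Of 1236 values recomputed under the alternatives, 1203 were counted as the same. A change had to keep its direction and side of the threshold, and a count had to stay within 1.5 times. A 50% time had to stay within its SE from leaving out each array. Most of the 1236 values come from leaving out 1 array, often one outside the groups compared, which cannot move the change itself. The total therefore says little about how firm a single call is. The falls of Pou5f1 and Sox2 at 72 h and at 60 h against 12 h D-F, and of Pou5f1 at 24 h, kept their calls under every alternative run. Testing all probe sets with 1 symbol called 11022 at 24 h A-C against 8 h, 8887 at 24 h D-F and 18680 at 72 h against 12 h D-F, 15522 at 72 h against 8 h, 18406 at 60 h against 12 h D-F and 3165 at 72 h against 60 h, where more features are tested. With array weights, whose estimation stopped before it reached its convergence tolerance, 5440 genes were called at 12 h A-C against 8 h (3554 in the reported fit) and 4496 at 72 h against 60 h (2039). With only the groups compared, Nanog at 24 h A-C against 8 h was called at -0.16, Pou5f1 (0.74) and Sox2 (-0.29) at 72 h against 60 h were not, and 131 genes were. With the array set as a block 1923 genes were called at 12 h and 1355 at 72 h against 60 h. With the array set ignored, 901 were called at 12 h and 518 at 72 h against 60 h, Nanog was called at 24 h (-0.29) and 72 h (-0.42) against 8 h, and Sox2 at 72 h against 60 h was not (-0.29). Leaving out each array gave 2357 (without 12 h A-C replicate 2) to 3821 genes at 12 h A-C against 8 h and 1054 (without 72 h replicate 3) to 3068 (without 60 h replicate 3) at 72 h against 60 h. That count was 1096 without 60 h replicate 1 and 1252 without 60 h replicate 2. Sox2 at 72 h against 60 h ran from -0.38 to -0.22, and its call was lost without 60 h replicate 2 or 3 or 72 h replicate 1 or 2. On the linear scale the 50% time of Pou5f1 was 30.4 h in place of 33.4 h. Without 72 h replicate 1, 13 core targets and 11 network factors were called lower at 72 h against 12 h D-F (14 and 12 in the reported fit). The share of all genes called lower was 34.5% in the reported fit and is not given for this refit. At 48 h against 36 h, a fit of only these groups called 1953 genes (4015 in the reported fit) and lost the call of Pou5f1 (-0.43), as did the same fit with the replicate block (1920 genes, -0.43). With the replicate block in the fit of all A to C arrays, where letters are shared, Pou5f1 at 24 h A-C against 8 h was -0.48 and 7016 genes were called, and no call of the 3 genes changed. No paired analysis was possible because letters are not shared for 36 h to 72 h against 12 h D-F. The causes of these shifts were not tested.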
